A study of Ceratopteris richardii with 9 samples.

Results

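The differentiated root, that is the root of the young sporophyte with its tip cut away (DR), was compared directly with the shoot (SH), which held leaves and stem, in the fern Ceratopteris richardii. The comparison used the 3 DR and the 3 SH libraries of a series of 9 libraries, and all 28952 transcripts of the deposited table entered it. All plants were of the genotype Hn-n and were taken 45 days after fertilization. They had been moved at 15 days after fertilization to a medium with 2% sucrose and were grown at 25 °C with 16 h of light and 8 h of dark, so DR and SH shared plant age and culture. By the study's methods each library was made from tissue pooled over many plants or roots and the libraries of a segment are independent biological replicates. The root tip libraries (RT) were not part of the comparison, and their values are given only where they stand beside a DR and SH result.

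Roots take up water and nutrients and anchor the plant, whereas leaves and stem carry photosynthesis and the shoot apex. In ferns a single apical cell in each root tip gives rise to the root tissues, and the differentiated root behind it holds cells that have left that meristem, with lateral roots forming along it. Much of what is known of the regulators of these organs comes from Arabidopsis. There, WOX homeodomain proteins keep stem cells, D-type cyclins (CYCD) with their kinases phosphorylate the retinoblastoma-related protein (RBR) so that cells can enter S phase, GRAS proteins such as SHORT-ROOT (SHR) and SCARECROW (SCR) specify the endodermis, the receptor kinase ACR4 controls formative divisions, the NAC protein SOMBRERO directs root cap maturation, and PIN carriers with auxin response factors (ARF) move and read auxin.

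The table holds estimated counts, the reads that the authors' software assigned to each transcript. They were divided by the library size, corrected by TMM factors that give little weight to a few dominant transcripts, and are given as CPM, counts scaled to a common library total. Total counts ranged from 22767182 to 24727423 in the DR libraries and from 25305228 to 27376654 in the SH libraries. Transcript lengths were not used, so CPM compare 1 transcript between libraries and not different transcripts with each other. The transcript numbers are those of the study's assembly, and 0 of them matched the reference gene table, so most transcripts are given by number only. The labelled tissues could not be checked with photosynthetic or vascular markers, because no such transcript is annotated. RNA from whole segments was sequenced, so fewer cells of a type and less RNA per cell cannot be told apart.

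The 6 libraries separated by segment. On log2(CPM + 0.5) over all transcripts, the distance between 2 DR libraries was 63.6 to 118.8 and that between 2 SH libraries 62.3 to 79.0, whereas every DR library lay 247 or more from every SH library. DR replicate 1 stood apart from the other DR libraries. Among the 13812 transcripts with a mean of at least 10 CPM, it differed at least 4-fold from the mean of the other two DR libraries for 159, against 2 for DR replicate 2 and 54 for DR replicate 3, and 7 to 18 for the SH libraries. The biological coefficient of variation was 29.1% in the DR and 20.01% in the SH. SH replicate 2 also stood apart, by 39 transcripts read almost only there, whose values are given at the end of the results.

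Between DR and SH, 3832 transcripts were higher in the DR and 3053 higher in the SH when a log2 fold change of 2 or more (a 4-fold difference) and an adjusted p up to 0.05 were required (edgeR's quasi-likelihood test, Benjamini-Hochberg adjustment over all 28952 transcripts). These were 13.2% and 10.5% of all transcripts. Without a fold limit, 9000 transcripts (31.1%) were higher in the DR and 8705 (30.1%) higher in the SH at an adjusted p of at most 0.05. The 3 DR libraries all lay above the 3 SH libraries for 3794 of the 3832 transcripts and all below them for 3043 of the 3053, beside 35.1% and 34.2% of all transcripts. Without DR replicate 1 the numbers were 3916 and 3419, of which 3666 and 2926 were among those called with all 6 libraries. Without SH replicate 2 they were 3581 and 3092.

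**Figure D1:**
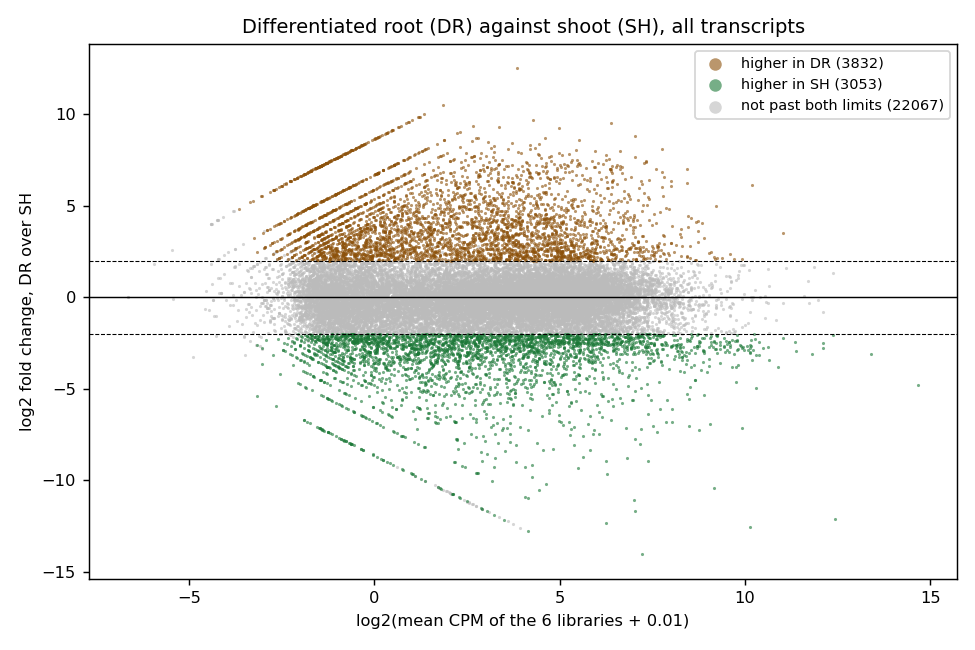
Log2 fold change of DR over SH (vertical axis) against log2 of the mean CPM of the 6 libraries plus 0.01 (horizontal axis), 1 point per transcript. Brown points are the 3832 transcripts higher in the DR, green points the 3053 higher in the SH, grey points those not past both limits, and dashed lines mark a log2 fold change of 2. Points on the slanted lines at the left have few or no counts in 1 segment, where the fitted fold change depends on a small number added to each count. On the right, at high levels, green points outnumber brown ones.

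The direction of the differences varied with the level of the transcripts. Among the 6018 transcripts with a mean under 1 CPM over the 6 libraries, 18.6% were higher in the DR and 10.6% higher in the SH. Between 10 and 100 CPM the shares were 9.52% and 7.99% of 11934 transcripts. From 100 to 1000 CPM they were 9.97% higher in the DR and 17.6% higher in the SH, of 1816 transcripts. Of the 62 transcripts at 1000 CPM or more, 2 were higher in the DR and 32 higher in the SH. Calls in the DR direction were thus more frequent at the lowest levels and calls in the SH direction at the highest, where the mean over both segments itself favours transcripts that are abundant in 1 of them. The authors had removed transcripts with low counts before deposit, so the shares at the lowest levels depend in part on which transcripts that filter kept. Counted in the segment where each was higher, 7 called transcripts averaged at least 1000 CPM in the DR and 71 in the SH, beside 45 and 107 transcripts at that level in all.

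A few transcripts took a large part of the SH reads and a smaller part of the DR reads. The 10 most abundant transcripts of each library held 4.67%, 4.601% and 4.498% of the counts in DR replicates 1 to 3, against 11.9%, 10.4% and 11.2% in SH replicates 1 to 3. The groups did not overlap, and the difference of -6.60 percentage points had p = 0.1 in an exact two-sided permutation test, the smallest p that 3 against 3 libraries allow. Each DR library needed 1637 to 1708 transcripts to reach 50% of its counts, each SH library 734 to 920. The transcripts higher in the DR held 14.5% to 19.0% of the counts of the DR libraries, against 1.40% to 1.63% in the SH libraries. Those higher in the SH held 4.31% to 7.61% of the counts of the DR libraries, against 34.9% to 38.2% in the SH libraries. The upper end in the DR was DR replicate 1, and the other two DR libraries were at 4.74% and 4.31%. These last shares describe transcripts chosen on the same libraries.

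**Figure D2:**
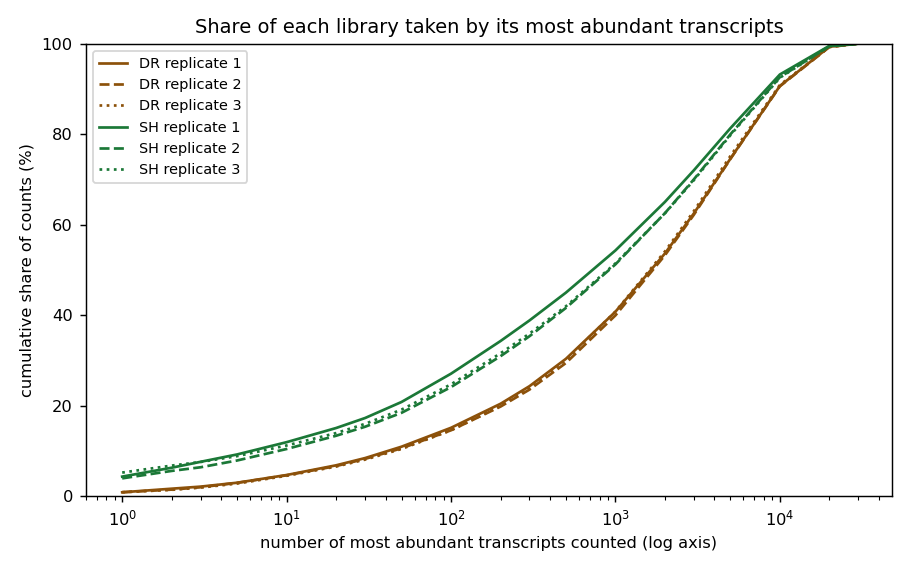
Cumulative share of a library's counts, in percent, against the number of its most abundant transcripts on a log axis, 1 line per library. The 3 brown DR lines start at 0.843% to 0.858% for 1 transcript and the 3 green SH lines at 3.93% to 5.21%, and the SH lines stay above the DR lines until nearly all transcripts are counted.

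The transcripts with the most reads in the DR were mostly abundant in the SH as well. transcript53133 had 7700, 7526 and 7618 CPM in the DR libraries, against 3365, 2941 and 2757 CPM in the SH libraries, a log2 fold change, DR over SH, of 1.33 (SE 0.21, adjusted p = 0.00127), where SE is the standard error. transcript28120 had 7254, 5135 and 4710 CPM in the DR libraries, against 1833, 1674 and 1878 CPM in the SH libraries. transcript125795 had 2857, 4515 and 4093 CPM in the DR libraries, against 397, 331 and 291 CPM in the SH libraries. Of the 8 transcripts with the highest mean CPM in the DR, only transcript125795 was past the 4-fold limit, with a log2 fold change of 3.49 (SE 0.26, adjusted p = 6.32e-05). The smaller differences of transcript28120 (1.67, adjusted p = 0.000897), transcript28675 (0.88, adjusted p = 0.00681) and transcript151936 (1.60, adjusted p = 0.000227) were also higher in the DR. transcript124941 was lower in the DR (-0.83, adjusted p = 0.0282), and its call was lost in 4 of 18 alternative settings (a test against a fold limit aside), with adjusted p up to 0.119. transcript145885 had 3512, 4081 and 3784 CPM in the DR libraries, against 4223, 4224 and 4256 CPM in the SH libraries, which did not overlap but differed by -0.16 only (adjusted p = 0.491), and transcript133864 had overlapping groups (adjusted p = 0.729).

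Among the 8 transcripts with the highest mean CPM in the SH, 7 were past the 4-fold limit in the SH direction, and transcript124941 was the other. transcript116031 held 0.202% of the DR counts and 4.48% of the SH counts on average, the largest share of any transcript in either segment. It had 2134, 1592 and 1709 CPM in the DR libraries, against 50830, 42680 and 56830 CPM in the SH libraries, a log2 fold change of -4.79 (SE 0.36, adjusted p = 5.96e-05). transcript145990 had 3967, 1570 and 1292 CPM in the DR libraries, against 23190, 17890 and 16840 CPM in the SH libraries. DR replicate 1 was the highest DR library in both. The same held for transcript44176 (-2.08), transcript52123 (-2.77), transcript151826 (-2.50) and transcript127986 (-3.11), all with adjusted p of 0.00166 or lower. transcript52123 had 1905, 868 and 589 CPM in the DR libraries, against 8083, 7990 and 6806 CPM in the SH libraries, so DR replicate 1 was the highest of the DR libraries and still far below the lowest SH library. With that DR library left out, transcript145990 was at -3.75 and transcript52123 at -3.39, against -3.08 and -2.77 with all 6 libraries. The remaining one, transcript36081, had 3.03, 1.58 and 2.65 CPM in the DR libraries, against 15410, 8764 and 8707 CPM in the SH libraries. It was among the most read transcripts of the SH and low in the DR, with 194 counts over the 3 DR libraries.

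The transcripts with the largest differences in the DR direction were selected among called transcripts with at least 50 CPM in the DR and no overlap of the libraries, 8 of them, and are given as a description of the strongest root side of the comparison. transcript125709 had 137, 224 and 138 CPM in the DR libraries, against 0.0466, 0.476 and 0.120 CPM in the SH libraries, a log2 fold change of 9.52 (SE 0.55, adjusted p = 2.56e-05). transcript42326 had 71.0, 54.6 and 61.8 CPM in the DR libraries, against 0, 0.199 and 0.0800 CPM in the SH libraries. transcript109538 had 129, 309 and 350.0 CPM in the DR libraries, against 0.140, 1.31 and 0.240 CPM in the SH libraries. In all of them each DR library was more than 50-fold above the highest SH library. transcript3529 had 145, 73.4 and 56.8 CPM in the DR libraries, against 0, 0.397 and 0.280 CPM in the SH libraries. transcript108591 had 453, 436 and 394 CPM in the DR libraries, against 1.40, 2.34 and 0.960 CPM in the SH libraries, the highest DR level of the 8. transcript117135 had 77.0, 65.4 and 116 CPM in the DR libraries, against 0.0932, 0.675 and 0.160 CPM in the SH libraries. DR replicate 1 was the highest DR library for transcript3529 and the lowest for transcript109538, so these transcripts did not share an order of the DR libraries. transcript3816 had 145, 255 and 192 CPM in the DR libraries, against 0.885, 0.834 and 0.560 CPM in the SH libraries. transcript3863 had 120.0, 142 and 108 CPM in the DR libraries, against 0.373, 0.873 and 0.200 CPM in the SH libraries. The log2 fold changes of the 8 ran between 7.97 and 9.52, with adjusted p between 9.51e-06 and 0.000128 from edgeR's quasi-likelihood test, and no alternative scaling, filter, tool or omitted library raised the adjusted p of any of them above 0.00121. For most of the 8 the size of the difference rested in part on SH replicate 2. Without it transcript125709 was at 10.80, transcript42326 at 10.31, transcript109538 at 10.35, transcript117135 at 9.30, transcript3529 at 9.17 and transcript3863 at 8.71. The others moved less, with transcript108591 at 8.464, against 8.085 with all 6 libraries, and transcript3816 at 8.06, against 8.018.

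SH replicate 2 was the highest SH library for 7 of these 8 transcripts. The same library was highest for 71 of the 103 transcripts with at least 50 CPM in the DR and a log2 fold change of 6 or more (68.9%). Their median level there was 1.19 CPM, against 0.699 CPM in SH replicate 1 and 0.840 CPM in SH replicate 3. For log2 fold changes between 2 and 4 it was highest for 21.4% of 444 transcripts, and over all transcripts with a mean of at least 10 CPM for 29.96%. The source of this excess was not tested, and the fold changes that set these ranges include SH replicate 2.

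The transcripts with the largest differences in the SH direction, chosen by the same limits, were at 3.03 CPM or lower in every DR library. transcript54323 had 0, 0.0359 and 0 CPM in the DR libraries, against 283, 370.2 and 239 CPM in the SH libraries, with a single count in the 3 DR libraries. The ratio of SH to DR over all libraries came to 24000 (exact 95% interval 4310 to 949000, for counting error only). transcript114102 had 2 counts in the DR and 0, 0 and 0.0780 CPM in the DR libraries, against 121, 169.8 and 168 CPM in the SH libraries, a ratio of SH to DR of 6220 (interval 1720 to 51400). Both transcripts thus had almost no reads in the DR, although every SH library was at 120 CPM or above. transcript23370 had 0.111, 0.503 and 0.468 CPM in the DR libraries, against 2767, 2065 and 1870 CPM in the SH libraries. transcript36081, described above, had a log2 fold change of -12.14 (SE 0.54, adjusted p = 1.26e-05). transcript59114 had 0.111, 0.0359 and 0.0780 CPM in the DR libraries, against 266, 284 and 238 CPM in the SH libraries. transcript110409 had 0.0369, 0.108 and 0.195 CPM in the DR libraries, against 226, 289 and 259.9 CPM in the SH libraries. All DR libraries of both were at 0.195 CPM or lower. transcript152118 had 0.665, 0.503 and 1.29 CPM in the DR libraries, against 1357, 974 and 1087 CPM in the SH libraries. transcript74031 had 0.111, 0.323 and 0.117 CPM in the DR libraries, against 95.1, 178 and 187 CPM in the SH libraries. The log2 fold changes of the 8 were between -14.07 and -9.65, with adjusted p of 1.65e-05 or lower from edgeR's quasi-likelihood test and up to 0.000271 over the same alternatives. Where the DR held few counts, single libraries moved the size. transcript54323 was at -15.85 and transcript74031 at -10.33 without DR replicate 2, and transcript114102 was at -14.92 and transcript110409 at -11.70 without DR replicate 3.

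**Figure D3:**
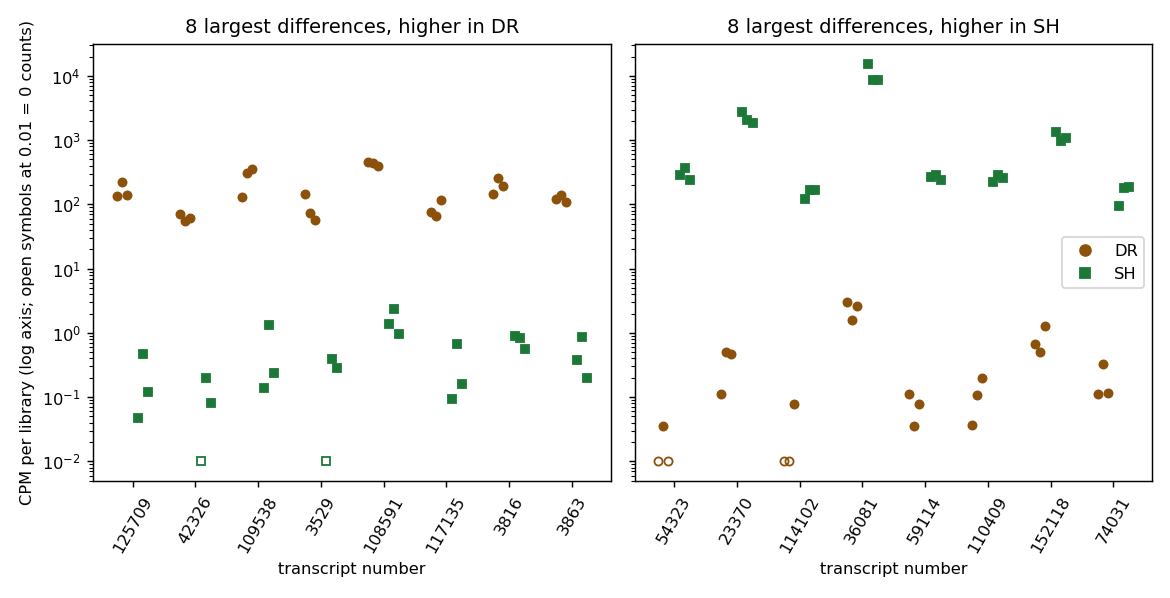
CPM of each library on a log axis for the 8 largest differences in each direction, with brown circles for the DR libraries and green squares for the SH libraries. Open symbols at 0.01 stand for libraries with 0 counts. In the left panel the DR libraries lie between 54.6 and 453 CPM and the SH libraries at 2.34 CPM or lower, and in the right panel the DR libraries lie at 3.03 CPM or lower and the SH libraries between 95.1 and 15410 CPM.

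The level of shoot transcripts in each DR library was also read from these values. transcript23370 was at 0.00496% of its mean SH level in DR replicate 1 and at 0.0210% in DR replicate 3, and transcript36081 was at 0.0144% in DR replicate 2. These were the lowest of the 100 transcripts most abundant in the SH in each DR library. The median level of the 100 was 25.5% of the mean SH level in DR replicate 1, 14.0% in DR replicate 2 and 13.8% in DR replicate 3. Of the 8 largest differences in the SH direction, DR replicate 1 was the highest DR library for 2, transcript36081 and transcript59114. Among transcripts with at least 50 CPM in the SH, DR replicate 1 was the highest DR library for 82.2% of the 668 with a log2 fold change between -2 and -4, for 47.3% of the 93 between -4 and -6, and for 33.3% of the 51 at -6 or lower. Over all transcripts with a mean of at least 10 CPM it was the highest for 51.1%. The fold changes that set these ranges include DR replicate 1, so its share in each range depends in part on the selection. At -6 or lower the median levels of the DR libraries were 0.683 to 0.741 CPM, where a library holds few counts. In the other direction, of the 100 transcripts most abundant in the DR the lowest in the SH was transcript126372, named after its values were seen, at 0.475% to 1.29% of its mean DR level in the SH libraries.

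**Figure D4:**
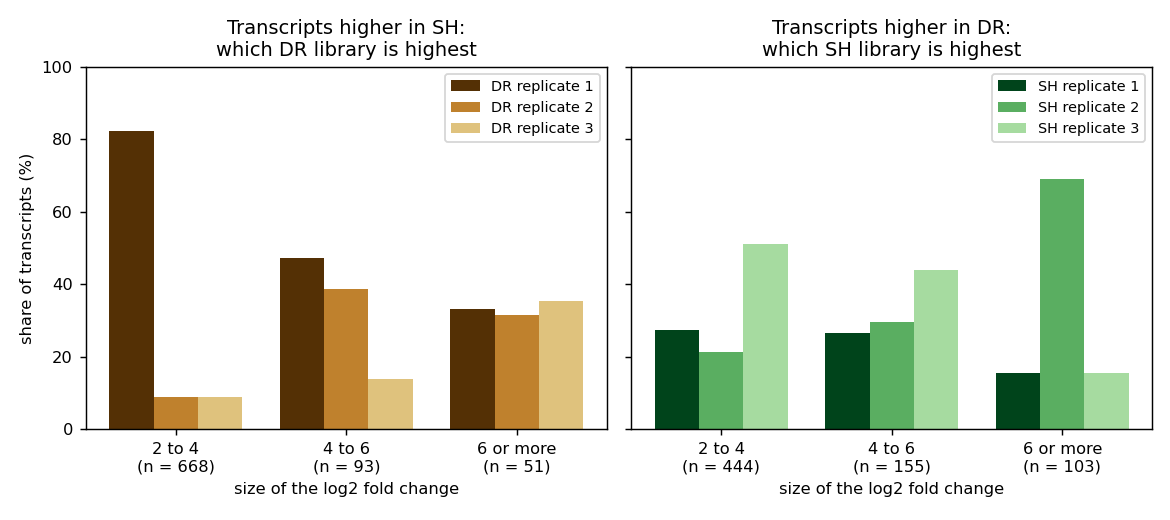
Share of transcripts, in percent, for which each library of the lower segment was the highest one, by the size of the log2 fold change, for called transcripts with at least 50 CPM in the higher segment. In the left panel DR replicate 1 has 82.2% of the transcripts at 2 to 4 and 33.3% at 6 or more, and in the right panel SH replicate 2 has 21.4% at 2 to 4 and 68.9% at 6 or more. The fold changes that set the ranges include the libraries shown, so the shares depend in part on the selection.

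Many of the transcripts on which DR replicate 1 deviated most were called in the comparison, whose calls this library enters. Of the 63 transcripts with a mean of at least 10 CPM that it held at least 4-fold above the other two DR libraries, 32 were called higher in the SH and 4 higher in the DR. Of the 96 that it held at least 4-fold below them, 65 were called higher in the DR and 5 higher in the SH. Over all transcripts 10.5% were called higher in the SH and 13.2% higher in the DR. Libraries of the DR differed by at least 2-fold for 1.51% of the transcripts between replicates 2 and 3, for 5.89% between replicates 1 and 2, and for 11.4% between replicates 1 and 3. The SH pairs were at 1.25% to 2.79%. The cause of this deviation was not tested.

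A transcript was counted as found in a segment when 2 or more of its 3 libraries reached 1 CPM. By that rule both segments held 19786 transcripts and neither held 4743, while 2365 were limited to the DR and 2058 to the SH. Most of these differences lay near the limit. The median level of the DR-only transcripts in the DR was 2.37 CPM and that of the SH-only transcripts in the SH 2.00 CPM. At least 10 CPM were reached by 415 of the DR-only and 220 of the SH-only transcripts, and 1734 and 1169 were also called by the test. When any count in 2 or more libraries was enough, 513 transcripts were limited to the DR and 210 to the SH. Such a transcript could still have counts in 1 library of the other segment.

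Complete absence of reads was rarer. Over the 3 libraries of a segment, 105 transcripts had 0 counts in the DR and 205 had 0 counts in the SH, including 2 with 0 counts in both, which allows up to 0.0372 CPM in the DR and 0.0419 CPM in the SH (3 counts over the 3 libraries, counting error only). Only 1 transcript without SH counts averaged at least 10 CPM in the DR. This was transcript146154, with 21.8, 32.8 and 32.0 CPM in the DR libraries, against 0, 0 and 0 CPM in the SH libraries, at least 689-fold higher in the DR. The next by DR level, transcript52057, had 11.2, 5.60 and 4.64 CPM in the DR libraries, against 0, 0 and 0 CPM in the SH libraries, at least 171-fold higher, and transcript47169 had 5.50, 6.40 and 3.20 CPM in the DR libraries, against 0, 0 and 0 CPM in the SH libraries, at least 120-fold higher. These transcripts, outside the selection rule above, were chosen after their values were seen.

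In the RT libraries, which the comparison did not use, transcripts were counted by the same rule. Of the 3832 transcripts higher in the DR, 81.3% were found in the DR, 36.1% in the SH and 54.6% in the RT. Of the 3053 transcripts higher in the SH, 49.9% were found in the DR, 88.1% in the SH and 58.4% in the RT. Over all transcripts 76.5% were found in the DR, 75.4% in the SH and 74.5% in the RT, whose CPM were scaled with all 9 libraries and those of the DR and SH with their own 6. With all 9 libraries scaled together, the median level of the transcripts higher in the DR was 6.75 CPM in the DR, 0.409 CPM in the SH and 1.65 CPM in the RT. For the transcripts higher in the SH it was 1.07 CPM in the DR, 12.2 CPM in the SH and 2.35 CPM in the RT. The 8 largest differences in the DR direction averaged 0.690 to 9.79 CPM in the RT, and the 8 largest in the SH direction 0.0124 to 0.879 CPM.

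For 36 transcripts a family or clade was named in the study's text, trees and figures, which were drawn from these libraries. Their roles in the fern were not tested here. Of the 36, 7 were higher in the DR (19.4%) and 18 higher in the SH (50.0%) at an adjusted p of at most 0.05 (edgeR's quasi-likelihood test over all transcripts), beside 31.1% and 30.1% of all transcripts. At the 4-fold limit 4 were higher in the DR and 7 higher in the SH, beside 13.2% and 10.5% of all transcripts. The median log2 fold change was -0.77, beside 0.01 over all transcripts. The libraries of the segments did not overlap for 25 of the 36, close to the 69.3% of all transcripts for which they did not. DR replicate 1 was the highest DR library for 25 of the 36, beside 51.1% of all transcripts with a mean of at least 10 CPM, a level that most of the 36 did not reach. Without it, 8 were higher in the DR and 19 in the SH. Of the 25 calls, 19 were kept in every alternative setting in which they were fitted, a test against a fold limit aside. The list was chosen by the study with these libraries in view and is not independent evidence of a direction. Most members are at low levels, and their adjusted p-values below come from the same test.

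**Figure D5:**
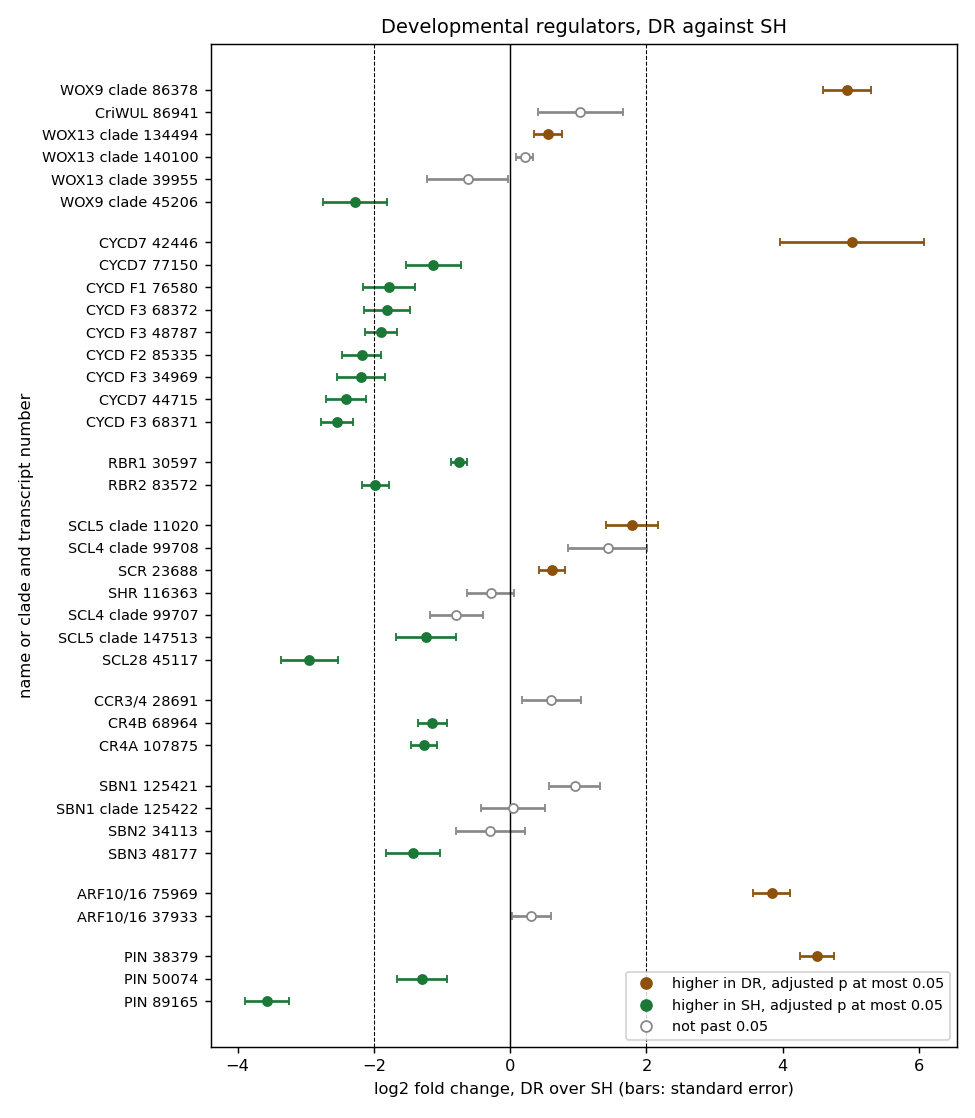
Log2 fold change of DR over SH for the 36 regulators, grouped by family, with bars for the standard error. Brown symbols are the 7 higher in the DR, green symbols the 18 higher in the SH and open symbols the 11 not past an adjusted p of 0.05. In the CYCD family 8 of 9 lie left of 0, and both ARF transcripts lie right of 0. The WOX, GRAS, PIN, ACR4-related (CR4) and SOMBRERO-related NAC (SBN) families have members on both sides.

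The WOX9 clade pair showed opposite directions. In Arabidopsis WOX9 supports growth of embryo and meristems. transcript86378 had 46.1, 23.7 and 22.9 CPM in the DR libraries, against 0.838, 1.11 and 1.04 CPM in the SH libraries, a log2 fold change of 4.94 (SE 0.36, adjusted p = 5.43e-05). transcript45206 had 0.148, 0.539 and 0.507 CPM in the DR libraries, against 1.44, 2.50 and 1.88 CPM in the SH libraries, a log2 fold change of -2.28 (SE 0.47, adjusted p = 0.00473). Both pairs of groups were without overlap, and DR replicate 1 was the highest DR library of transcript86378 and the lowest of transcript45206. The text of the study calls transcript45206 CriWOXA and transcript86378 CriWOXB, while its tree carries these names the other way round, so the numbers are used here. Of the WOX13 clade, the oldest WOX clade of land plants, transcript134494 had 5.02, 5.89 and 5.66 CPM in the DR libraries, against 3.03, 3.89 and 4.36 CPM in the SH libraries and was slightly higher in the DR, with a log2 fold change of 0.55 (SE 0.20, adjusted p = 0.0479), a call lost in 9 of 18 alternative settings with adjusted p up to 0.204. transcript140100, with 16.7 ± 1.26 CPM in the DR and 14.4 ± 0.939 CPM in the SH (SD, n = 3 each), and transcript39955, under 1 CPM in every library, were not past 0.05 (adjusted p = 0.184 and 0.392). CriWUL (transcript86941), of the WUS clade that in Arabidopsis holds the shoot and root stem cell factors, had 0.185, 0.395 and 0.195 CPM in the DR libraries, against 0.0466, 0.199 and 0.120 CPM in the SH libraries, with 21 counts in the DR and 9 in the SH in all, and a difference was not detectable at this depth (adjusted p = 0.189).

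Of the 9 CYCD transcripts, which promote the entry into the cell cycle, 8 were lower in the DR and 1 was higher, beside 30.1% and 31.1% of all transcripts. transcript68371, with the most CYCD counts, had 25.6, 17.6 and 13.5 CPM in the DR libraries, against 115, 103 and 111 CPM in the SH libraries, a log2 fold change of -2.54 (SE 0.24, adjusted p = 0.000136). Its neighbour in the numbering, transcript68372, of the same F3 group, had 5.72, 3.23 and 2.19 CPM in the DR libraries, against 11.2, 13.9 and 14.0 CPM in the SH libraries (-1.81, adjusted p = 0.00316). transcript34969 of that group had 4.39, 2.59 and 1.64 CPM in the DR libraries, against 11.5, 15.3 and 12.5 CPM in the SH libraries (-2.19, adjusted p = 0.00147). In each of these the DR libraries lay below the SH libraries, with DR replicate 1 highest of the DR. transcript48787, also F3, had 0.775, 1.01 and 0.858 CPM in the DR libraries, against 3.68, 3.02 and 3.16 CPM in the SH libraries (-1.89, adjusted p = 0.000438). transcript85335 of the F2 group had 2.25, 2.48 and 4.33 CPM in the DR libraries, against 16.1, 12.6 and 12.3 CPM in the SH libraries (-2.18, adjusted p = 0.000582). transcript76580 of the F1 group had 0.443, 0.359 and 0.390 CPM in the DR libraries, against 0.792, 1.59 and 1.72 CPM in the SH libraries (-1.78, adjusted p = 0.0055). These had no overlap either. The highest DR library of transcript76580 was DR replicate 1, which was the lowest of transcript48787 and transcript85335. kallisto divides reads among similar sequences. Whether transcript68371 and transcript68372 share reads was not tested, so the split between them may be uncertain.

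The 3 CYCD7 transcripts differed among themselves. transcript44715 had 4.69, 2.59 and 2.15 CPM in the DR libraries, against 15.7, 17.4 and 17.01 CPM in the SH libraries, a log2 fold change of -2.41 (SE 0.30, adjusted p = 0.000442). transcript77150 had 7.42, 5.17 and 2.07 CPM in the DR libraries, against 10.6, 10.1 and 11.3 CPM in the SH libraries, a smaller difference of -1.13 (adjusted p = 0.0455) that was lost in 5 of 18 alternative settings, with adjusted p up to 0.116. transcript42446 was the CYCD higher in the DR, with 1.07, 0.503 and 0.234 CPM in the DR libraries, against 0, 0.0397 and 0 CPM in the SH libraries. It had 49 counts over the DR libraries and 1 over the SH libraries, a ratio of DR to SH of 43.6 (exact 95% interval 7.47 to 1760, counting error alone), with adjusted p = 0.005. DR replicate 1 was the highest DR library for 7 of the 9 CYCD transcripts, and without it the counts stayed at 1 higher and 8 lower in the DR.

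Both RBR transcripts, whose Arabidopsis counterpart holds back the cell cycle until CYCD kinases act on it, were lower in the DR. RBR2 (transcript83572) had 2.66, 2.77 and 1.95 CPM in the DR libraries, against 8.57, 10.5 and 10.04 CPM in the SH libraries, a log2 fold change of -1.98 (SE 0.20, adjusted p = 0.000209). RBR1 (transcript30597) had 26.3, 24.3 and 23.3 CPM in the DR libraries, against 39.9, 45.9 and 38.2 CPM in the SH libraries, a log2 fold change of -0.75 (SE 0.12, adjusted p = 0.00142). Both had 3 DR libraries below all SH libraries, and the difference of RBR1 was the smaller one.

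The GRAS transcripts went in different directions. SCL28 (transcript45117), a promoter of mitotic progression in Arabidopsis, had 1.66, 0.683 and 0.507 CPM in the DR libraries, against 6.89, 7.38 and 7.84 CPM in the SH libraries, a log2 fold change of -2.95 (SE 0.42, adjusted p = 0.000886), and of -3.62 without DR replicate 1. SCR (transcript23688) had 31.6, 42.1 and 32.1 CPM in the DR libraries, against 25.0, 17.7 and 26.2 CPM in the SH libraries and was higher in the DR by 0.62 (SE 0.19, adjusted p = 0.0257), a call lost in 4 of 18 alternative settings with adjusted p up to 0.0931. SHR (transcript116363), whose protein in Arabidopsis moves out of the vascular tissue and acts with SCR, had 4.80, 2.98 and 2.22 CPM in the DR libraries, against 2.84, 4.37 and 5.002 CPM in the SH libraries. The SHR groups overlapped, the difference of -0.29 was not past 0.05 (adjusted p = 0.498) and its direction changed when libraries were scaled by size alone. Of the SCL5 clade, transcript11020 had 9.64, 22.8 and 28.2 CPM in the DR libraries, against 6.94, 5.08 and 5.56 CPM in the SH libraries, higher in the DR by 1.79 (SE 0.38, adjusted p = 0.0055). DR replicate 1 was its lowest DR library. transcript147513 of that clade had 0.2996 ± 0.150 CPM in the DR and 0.707 ± 0.121 CPM in the SH (SD, n = 3 each) and was lower in the DR (-1.23, adjusted p = 0.0451), which was lost in 8 of 17 alternative settings. The SCL4 clade transcripts carry consecutive numbers. transcript99707 had 14.5, 9.09 and 4.56 CPM in the DR libraries, against 16.6, 19.4 and 12.7 CPM in the SH libraries (-0.79, adjusted p = 0.118). transcript99708 had 21.01, 8.30 and 4.45 CPM in the DR libraries, against 2.42, 5.44 and 4.64 CPM in the SH libraries (1.43, adjusted p = 0.0664). In both the groups overlapped and DR replicate 1 was the highest DR library. Without DR replicate 1, transcript99707 was lower in the DR (-1.25, adjusted p = 0.0117), and without DR replicate 3, transcript99708 was higher in the DR (1.81, adjusted p = 0.0149), whereas without DR replicate 1 it was at 0.61 (adjusted p = 0.214). Reads could be shared between these copies.

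Of the 3 receptor kinases related to ACR4, 2 were lower in the DR, beside 30.1% of all transcripts. CR4A (transcript107875) had 6.06, 5.14 and 3.86 CPM in the DR libraries, against 11.5, 11.9 and 12.8 CPM in the SH libraries, a log2 fold change of -1.26 (SE 0.20, adjusted p = 0.00127). CR4B (transcript68964) had 15.1, 11.6 and 8.27 CPM in the DR libraries, against 24.7, 25.1 and 27.4 CPM in the SH libraries, a log2 fold change of -1.14 (SE 0.22, adjusted p = 0.0033). The groups did not overlap in either. The related CCR3/4 transcript (transcript28691) had 8.01, 19.4 and 31.8 CPM in the DR libraries, against 13.3, 11.6 and 14.0 CPM in the SH libraries, with DR libraries on both sides of the SH libraries and an adjusted p of 0.263. Without DR replicate 1 it was higher in the DR by 0.98 (adjusted p = 0.00624), whereas leaving out DR replicate 3 gave 0.08 (adjusted p = 0.86).

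The SMB-related NAC transcripts (SBN) showed 1 difference. SBN3 (transcript48177) had 1.59, 0.790 and 0.663 CPM in the DR libraries, against 1.96, 3.26 and 3.00 CPM in the SH libraries and was lower in the DR, with a log2 fold change of -1.43 (SE 0.39, adjusted p = 0.0163), a call lost in 1 of 18 alternative settings, without DR replicate 2 (adjusted p = 0.0615). SBN1 (transcript125421) had 3.66, 2.23 and 1.44 CPM in the DR libraries, against 1.12, 1.51 and 1.16 CPM in the SH libraries (0.95, adjusted p = 0.0618) and passed 0.05 without DR replicate 3 (1.21, adjusted p = 0.0160), with DESeq2 and with scaling by library size alone, whereas without DR replicate 1 it was at 0.54 (adjusted p = 0.17). transcript125422, with the next number in the same clade, had 1.15 ± 0.627 CPM in the DR and 1.12 ± 0.238 CPM in the SH (SD, n = 3 each, adjusted p = 0.942 from edgeR's test). SBN2 (transcript34113) had 5.32, 2.87 and 1.33 CPM in the DR libraries, against 2.47, 5.32 and 3.84 CPM in the SH libraries, with overlapping groups (adjusted p = 0.644). DR replicate 1 was the highest and DR replicate 3 the lowest DR library in all 4. The number of SBN3 was hard to read in the study's tree and was taken as the only reading that is in the table, and the extra SBN1, SCL4 and SCL5 numbers come from small tree labels too.

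The auxin-related transcripts held some of the largest differences of the list. ARF10/16 transcript75969, of a class that in Arabidopsis acts in root cap formation, had 19.6, 23.5 and 21.8 CPM in the DR libraries, against 2.10, 0.992 and 1.48 CPM in the SH libraries, a log2 fold change of 3.84 (SE 0.27, adjusted p = 5.17e-05). A further ARF10/16 transcript, transcript37933, had 26.4, 16.8 and 13.1 CPM in the DR libraries, against 11.6, 16.0 and 17.9 CPM in the SH libraries (0.31, adjusted p = 0.38), and its DR and SH libraries overlapped. Of the PIN transcripts, whose proteins carry auxin out of cells, transcript38379 had 26.5, 25.3 and 17.6 CPM in the DR libraries, against 0.838, 1.23 and 0.960 CPM in the SH libraries, a log2 fold change of 4.51 (SE 0.25, adjusted p = 2.16e-05). transcript89165 had 0.960, 1.51 and 0.975 CPM in the DR libraries, against 8.90, 16.8 and 15.3 CPM in the SH libraries, a log2 fold change of -3.57 (SE 0.33, adjusted p = 0.000129). These PIN transcripts were thus on opposite sides, each without overlap. transcript50074 had 21.8, 13.4 and 11.0 CPM in the DR libraries, against 21.7, 50.5 and 41.2 CPM in the SH libraries, lower in the DR, with a log2 fold change of -1.30 (SE 0.37, adjusted p = 0.0179), although DR replicate 1 and SH replicate 1 were alike, and the call was lost in 3 of 18 alternative settings with adjusted p up to 0.0624, among them the fit with the replicate number as a block (adjusted p = 0.0556). The numbers of these ARF and PIN transcripts were read from a figure of low resolution and are less certain than the others, and further ARF10/16 and PIN transcripts of the study are not analysed here.

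Transcripts with consecutive numbers were compared, since members of the same clade or group carried neighbouring numbers in several families above. Of 12627 pairs of consecutive numbers, 5041 had at least 1 called member and 1040 had both called, 461 with both higher in the DR, 268 with both higher in the SH and 311 with opposite directions. Among the members of all pairs 24.1% were called, and among the second members of pairs whose first member was called 34.1%. The log2 fold changes of the pairs had a Pearson correlation of 0.166 and a Spearman correlation of 0.151 across pairs, which share libraries and may share reads. In 102 of the opposite pairs both members reached 10 CPM in their higher segment. The pair with the largest opposite differences was transcript114101, with 72.2, 104 and 159.8 CPM in the DR libraries, against 1.44, 0.953 and 1.68 CPM in the SH libraries, and transcript114102, described above, which was high in the SH. transcript65696 had 38.1, 33.9 and 44.6 CPM in the DR libraries, against 1.16, 0.953 and 0.560 CPM in the SH libraries, and transcript65695 had 0.369, 0.359 and 0.117 CPM in the DR libraries, against 18.4, 14.3 and 16.5 CPM in the SH libraries. transcript49120 had 17.1, 21.7 and 30.6 CPM in the DR libraries, against 1.26, 0.556 and 0.840 CPM in the SH libraries, and transcript49121 had 0.923, 1.33 and 1.13 CPM in the DR libraries, against 49.0, 65.2 and 40.6 CPM in the SH libraries. In each of these 3 pairs, which were chosen after their values were seen, the libraries of both members were without overlap. Whether such pairs are copies of a gene, forms of a transcript or unrelated sequences is not given by the numbers.

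A set of 39 transcripts set SH replicate 2 apart. They were those with at least 10 CPM in an SH library and over 90% of their SH level in a single library, and all 39 had that library in SH replicate 2. The same rule within the DR found 1 transcript, in DR replicate 1. The 39 transcripts ranged from 12.2 to 110.7 CPM in SH replicate 2, with 0.512 to 3.59 CPM in SH replicate 1 and at most 0.120 CPM in SH replicate 3. The authors had removed transcripts with low counts before deposit, so sequences read in a single library may be missing. The numbers found by this rule, and the levels in SH replicate 1, thus depend in part on that filter. In the DR 32 of them had 0 counts, and the highest single count was 4. Of these 39, 10 were among the 3053 transcripts called higher in the SH and 18 among the 2058 found in the SH only. They also made up 18 of the 22 transcripts that averaged at least 10 CPM in the SH with 0 counts in the DR. Left out in turn, SH replicate 1 left 7 of the 39 called, SH replicate 2 left 4, and SH replicate 3 left all 39. With DESeq2 10 of the 39 were called and with limma voom 0, and 0 of them had an unadjusted p under 0.05 in limma voom. transcript48600, named for its level after its values were seen, had 0, 0 and 0 CPM in the DR libraries, against 2.47, 103 and 0.0800 CPM in the SH libraries. Outside the comparison, all 39 were also read in RT replicate 3, at 18.5 to 158.4 CPM, and had 0 counts in the other two RT libraries.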

How the data were processed

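RNA was sequenced from DR, SH and RT with 3 libraries each. By the study's methods the authors trimmed reads (Trimmomatic 0.32), assembled the transcriptome de novo from all libraries and quantified each library with kallisto 0.44.0, and they removed transcripts with low counts. The deposited table holds estimated counts per transcript, not divided by library size or length. They were rounded to whole numbers here. TMM scaling and the quasi-likelihood test of edgeR 4.0.16 (R 4.3.3) were run on the 6 DR and SH libraries, with 1 coefficient per segment, prior count 0.125 and Benjamini-Hochberg adjustment over all transcripts. Calls needed a log2 fold change of 2 or more in size and an adjusted p up to 0.05. For named transcripts only the adjusted p was used. Alternatives were other scalings and filters, DESeq2 1.42.0, limma 3.58.1 voom, all 9 libraries, the replicate number as a block, other limits and each library left out. The fit was also run on simulated counts with few changed transcripts, all at 1 CPM or more. That run did not cover changes at lower levels or a library that stands apart.

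The text names every transcript of the regulator list, the 8 with the largest fold change in each direction among called transcripts with at least 50 CPM and no overlap, and the 8 with the highest mean CPM in each segment. The members and lists were chosen with earlier results of these data known. A further CYCD transcript and further ARF10/16 and PIN transcripts of the study are not analysed here. No 2 replicates of a segment were duplicates (mean chi-square per transcript at least 20.2, where about 1 would come from counting alone). The SE of a log2 fold change was derived from the F statistic.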

Additional observations from a re-analysis of the deposited data

How the results depend on the processing

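Counts of calls stayed within 1.5 times of the 3832 transcripts higher in the DR and the 3053 higher in the SH under other scalings, filters and tools, with 3581 to 3916 and 2927 to 3419 when single libraries were left out. Scaling by library size alone moved the median log2 fold change of all transcripts to 0.33, against 0.01 with TMM, and the calls to 4453 and 2350. A limit of 1 on the log2 fold change gave 6205 and 6259, and no limit 9000 and 8705. Detection at any count, again in 2 or more libraries, limited 513 transcripts to the DR and 210 to the SH. Leaving out single libraries at 1 CPM limited 1702 to 2808 and 1663 to 2602. The difference in share of the most abundant transcripts was -10.6 percentage points for 100 of them and -6.97 to -6.22 with single libraries left out. Against a log2 fold change of 1 (glmTreat), 5 regulators were higher in the DR and 11 in the SH. With single libraries left out, 5 to 8 and 14 to 19 were.

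Whether same-numbered DR and SH libraries came from the same plants is not given by the labels. Deviations of same-numbered DR and SH libraries correlated at -0.034, -0.021 and 0.123, and those of differently numbered ones at -0.155 to 0.139. Not every library correlated best with its own number. Such correlations over 3 libraries per segment cannot decide whether libraries share plants. With the replicate number as a block 3716 and 3127 transcripts were called, and 5 and 17 regulators. No crossed pairing was tried.

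Of the 66 named transcripts, those whose direction changed were not past 0.05. With library size alone, transcript116363 was at 0.017, transcript34113 at 0.01 and transcript145885 at 0.16. transcript125422 was at -0.006 with upper-quartile scaling, -0.12 with limma voom, -0.053 with all 9 libraries and -0.064 with the block, and at -0.34 to 0.41 with single libraries left out. With all 9 libraries transcript133864 was at -0.004, and with single libraries left out at -0.005 to 0.17, transcript34113 at -0.88 to 0.075 and transcript37933 at -0.02 to 0.51. Depth limits the transcripts under 1 CPM, where a library holds few counts.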

Other observations

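The 39 transcripts read almost only in SH replicate 2 among the SH libraries were also read in RT replicate 3. The ratio of RT replicate 3 to SH replicate 2 ran between 0.802 and 1.41, with a median of 1.26, with all 9 libraries scaled together. Their median was 49.4 CPM in RT replicate 3 in that scaling. With the 6 DR and SH libraries scaled alone it was 34.6 CPM in SH replicate 2 and 0.978 CPM in SH replicate 1, and 0 in every DR library. Together they held 0.149% of the counts of SH replicate 2. What these sequences are is not given by the numbers, and no test of their origin was made.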
